A study of Mus musculus with 10 samples.

Results

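The 9 genes described here are markers of resident Kupffer cells, the macrophages that live in the sinusoids of the liver: Clec4f, Timd4, Vsig4, Cd5l, Marco, Adgre1, Csf1r, Cd163 and Folr2. They were taken by symbol from a table of 55291 genes and all 9 passed the filter on low counts, which left 17015 genes for testing. Bulk RNA-seq was made from the right liver lobe of 10 female Cas9 Lox-Stop-Lox mice aged 16 to 20 weeks. All 10 mice, controls included, carried the silenced Cas9 gene and received an AAV8 virus with a U6-driven guide RNA and a Cre recombinase under the hepatocyte promoter TBG, so that Cas9 and the cutting of Bap1 were directed to hepatocytes rather than to Kupffer cells. The guide was either a non-targeting control (NTC) or targeted Bap1 (sgBap1), a deubiquitinase that acts on histone H2A. On day 10 the mice were injected intraperitoneally with carbon tetrachloride (CCl4), a hepatotoxin, diluted 1:9 in olive oil, or with olive oil alone as vehicle (Veh), at 10 µL per g body weight, and livers were taken 48 hours later. There were 2 livers each of NTC and sgBap1 mice with vehicle (NTC-Veh, sgBap1-Veh) and 3 each with CCl4 (NTC-CCl4, sgBap1-CCl4). The 2 questions were whether RNA of resident Kupffer cells was lower after CCl4 and whether it was higher with Bap1 editing.

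Kupffer cells settle in the liver before birth and maintain themselves there by division, under signals from stellate cells, endothelium and hepatocytes that include CSF1 and IL-34, the ligands of the receptor encoded by Csf1r. In toxic injury resident cells can be lost and monocytes enter from the blood; these become macrophages that share many genes with Kupffer cells but take up the most specific ones only with time. In mice Clec4f, a C-type lectin, and Timd4, a receptor for phosphatidylserine on dying cells, are the most specific of the 9. Vsig4 is a complement receptor that captures particles from blood, Cd163 takes up haemoglobin bound to haptoglobin, and Folr2 is a folate receptor of resident macrophages. Cd5l encodes a secreted scavenger-receptor protein and Marco a scavenger receptor for bacteria and particles. Adgre1 (F4/80) and Csf1r are found on most macrophages, including recruited ones.

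The sequences before the start sites of 5 members are shown because these genes stand for the different patterns described below. Clec4f, Timd4, Vsig4 and Folr2 did not pass the test after CCl4 in NTC livers, though Vsig4 and Folr2 passed with another test or scaling. Marco had the largest rise among the 9. They are RefSeq promoter sequences of GRCm38.p6, written 5′ to 3′ on the strand of the gene, and they end before the first base annotated as transcribed in RefSeq or GENCODE vM21. Capitals mark matches to GGAAGT, a core recognised by ETS factors such as PU.1, the factor that defines macrophages, and to GGAANNGAAA, a composite of PU.1 and IRF factors. Both strands were searched, and the first motif can lie inside the second.
Clec4f (chr6:83656188-83656366, minus strand): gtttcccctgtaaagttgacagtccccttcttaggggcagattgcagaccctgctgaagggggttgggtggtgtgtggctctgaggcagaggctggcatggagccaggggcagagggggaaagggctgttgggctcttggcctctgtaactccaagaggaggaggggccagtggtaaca
Timd4 (chr11:46810549-46810798, plus strand): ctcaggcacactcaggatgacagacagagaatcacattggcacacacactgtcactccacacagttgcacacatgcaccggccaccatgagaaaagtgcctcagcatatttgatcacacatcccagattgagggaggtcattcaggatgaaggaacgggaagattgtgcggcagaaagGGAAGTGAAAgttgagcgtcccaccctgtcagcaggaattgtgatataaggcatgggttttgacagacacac
Vsig4 (chrX:96293439-96293688, minus strand): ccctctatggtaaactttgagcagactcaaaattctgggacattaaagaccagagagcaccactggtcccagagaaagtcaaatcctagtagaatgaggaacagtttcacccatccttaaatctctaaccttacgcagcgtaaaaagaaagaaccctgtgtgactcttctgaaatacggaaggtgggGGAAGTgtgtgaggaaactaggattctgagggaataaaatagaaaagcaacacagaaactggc
Folr2 (chr7:101857195-101857440, minus strand): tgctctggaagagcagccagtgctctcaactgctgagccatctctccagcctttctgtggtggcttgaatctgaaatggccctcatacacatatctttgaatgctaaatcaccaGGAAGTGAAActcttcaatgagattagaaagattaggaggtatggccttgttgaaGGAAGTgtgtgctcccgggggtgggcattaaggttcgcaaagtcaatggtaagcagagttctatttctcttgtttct
Marco (chr1:120505025-120505274, minus strand): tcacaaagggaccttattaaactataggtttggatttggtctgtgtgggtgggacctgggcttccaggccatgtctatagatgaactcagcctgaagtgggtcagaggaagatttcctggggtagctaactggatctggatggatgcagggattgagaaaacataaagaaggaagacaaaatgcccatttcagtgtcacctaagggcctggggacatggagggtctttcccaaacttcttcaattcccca

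Entries were used for 7 of the 9 members. None was matched for Adgre1, and entries on chromosome 18, where Csf1r lies, were left out of the search. In the 250 bases before the RefSeq start, GGAAGT was found in Clec4f, Timd4, Vsig4 and Folr2, against 19.7% of 32851 promoters of the same length. The match of Clec4f lies in bases that GENCODE counts as transcribed and is not shown. The composite motif was found in Timd4 and in Folr2, against 2.30% of the promoters. Folr2 has 2 RefSeq entries, of which the one shown holds these matches and the other (chr7:101845332-101845581) holds neither motif. No match to either was found in Cd5l, Marco and Cd163. Cd163, whose sequence is not shown, also did not pass the test after CCl4 in NTC livers. The motifs were chosen after these sequences had been seen, and a match describes the letters only.

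Values are CPM, the estimated count of a gene scaled to a common library size, with libraries adjusted by the trimmed mean of M values (TMM). The total estimated count was 3.30e+07 to 5.22e+07 per liver, the smallest count of any member in any liver was 179, and 3 counts correspond to 0.0511 to 0.112 CPM, so that depth did not limit the detection of these genes. Bap1 itself was at 34.8 CPM in both NTC-Veh livers and at 17.5 and 19.5 CPM in the sgBap1-Veh livers. After CCl4 it was at 29.5 to 31.5 CPM with the control guide and at 17.0 to 21.8 CPM with the Bap1 guide, so the RNA was reduced in bulk and not absent (log2 fold change -0.91 ± 0.12 SE with vehicle, adjusted p = 0.0208, and -0.65 ± 0.10 with CCl4, adjusted p = 0.0295, edgeR's quasi-likelihood test). The 5 fat cell markers summed to 289 CPM in sgBap1-CCl4 replicate 2, against 0.565 to 15.4 CPM in the other 9 livers. This library stands apart, and calls and signs of members that change without it are given beside their values. Adgre1 and the other 8 members were detected in every liver. The positions are those of GENCODE vM21 (GRCm38).

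In NTC-Veh livers, per kilobase of exon, Cd5l was the most abundant member (41.9 CPM per kb; chr3:87357881-87371073), followed by Clec4f (30.4; chr6:83644542-83656187) and Vsig4 (15.5; chrX:96247203-96293438). Marco (7.74; chr1:120474538-120505024), Csf1r (5.72; chromosome 18), Folr2 (4.24; chr7:101839988-101857194), Timd4 (3.01; chr11:46810800-46844332), Adgre1 (2.97; chr17:57358691-57483527) and Cd163 (2.51; chr6:124304656-124330527) were lower. In NTC-CCl4 livers this order had changed. Marco (130.4 CPM per kb) and Cd5l (122) then led, Clec4f was at 25.6, Vsig4 at 24.6, Csf1r at 16.8 and Adgre1 at 10.7 CPM per kb, and Folr2 (6.86), Timd4 (4.39) and Cd163 (1.36) were the lowest. Csf1r shares 14.3% of its 50-base stretches with Hmgxb3, which lies on the other strand and was at 15.8 to 23.1 CPM. Folr2 shares 52.6% with Gm10602, also on the other strand, which had at most 39 counts in a liver. The library kit keeps strand, but whether the counting used it is not given in the sources used here, so the values of both genes are uncertain to that extent.

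**Figure D1:**
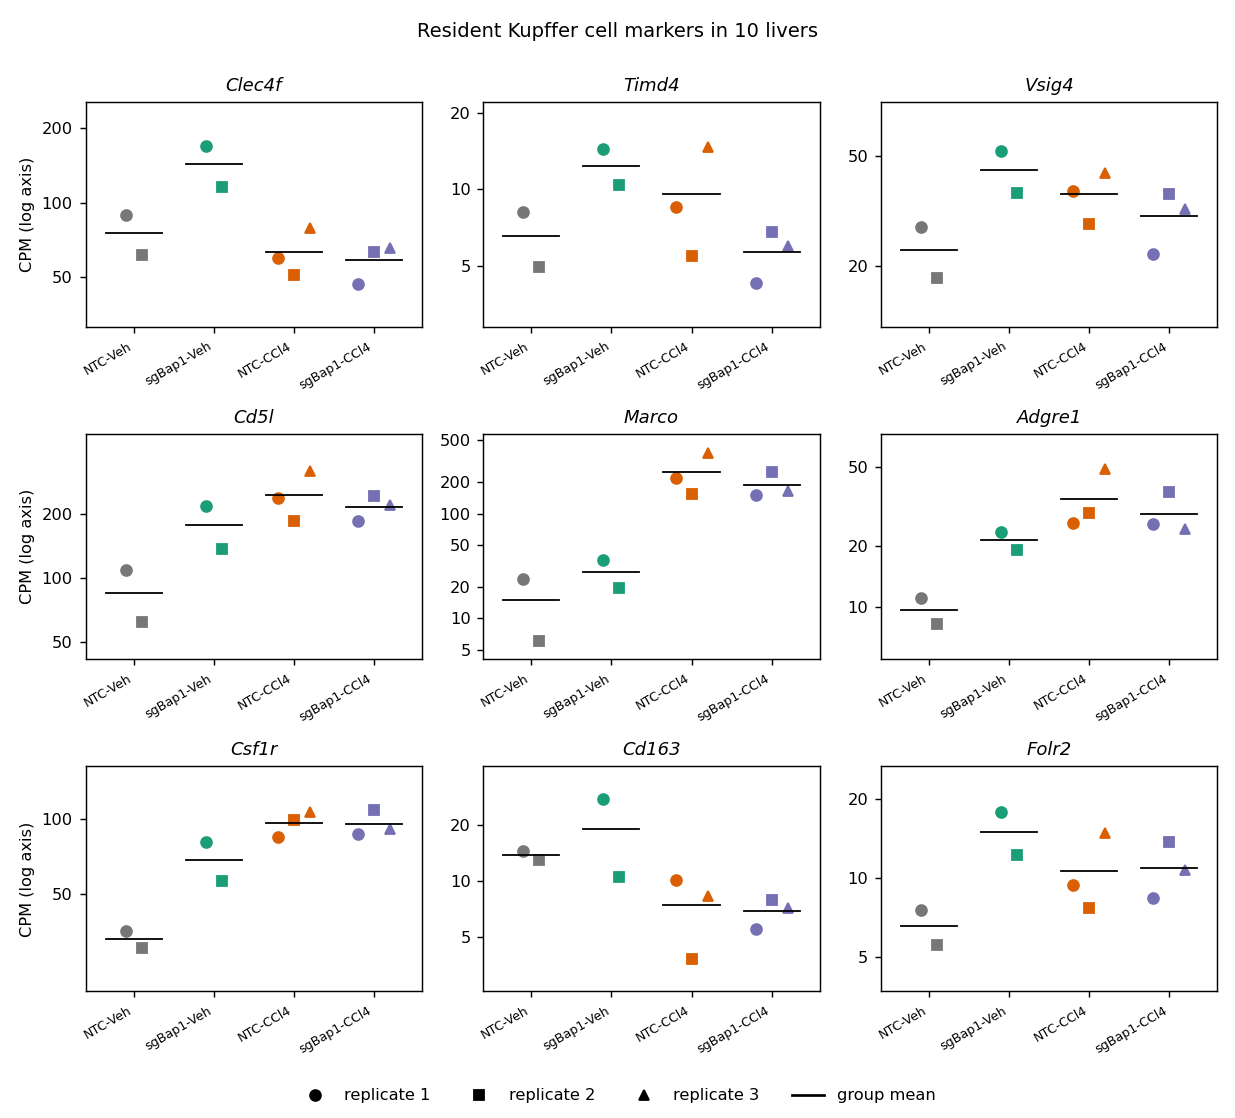
CPM (log axis) of the 9 resident Kupffer cell markers in each of the 10 livers by group; symbols give the replicate and bars the group mean. Clec4f lies between 47.1 and 78.7 CPM in the 6 CCl4 livers and between 61.5 and 169.8 in the 4 vehicle livers, whereas Marco lies between 150.2 and 381 CPM after CCl4 and between 6.10 and 35.8 with vehicle.

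After CCl4, the markers of NTC livers parted into a group that rose and a group that did not pass the test in either direction. Cd5l, Marco, Adgre1 and Csf1r rose, 2.91- to 16.9-fold. Clec4f, Timd4, Vsig4, Cd163 and Folr2 did not pass the test, and none of the 9 was called lower. The 4 of 9 called higher stand beside 27.4% of all tested genes called higher and 26.6% called lower in this comparison. The median log2 fold change of the members was 0.69, that of all tested genes 0.03.

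Clec4f was at 88.8 and 61.5 CPM in the NTC-Veh livers and at 60.0, 51.0 and 78.7 CPM in the NTC-CCl4 livers. The groups overlap, since 1 CCl4 liver lies between the vehicle livers. Its log2 fold change was -0.25 ± 0.24 (adjusted p = 0.418, edgeR's quasi-likelihood test, as for all adjusted p below). Timd4, at 8.14 and 4.96 CPM with vehicle, was at 8.49, 5.47 and 14.7 CPM after CCl4, again with overlap (0.53 ± 0.41, adjusted p = 0.303). Neither of the most specific markers was called lower 48 hours after CCl4 in NTC livers. In bulk tissue fewer cells of a type and less RNA per cell cannot be told apart. Cd163 was at 14.4 and 13.0 CPM with vehicle and lower in all 3 CCl4 livers, at 10.1, 3.81 and 8.33 CPM, but the difference did not pass the test (-0.89 ± 0.46, adjusted p = 0.136).

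Vsig4 and Folr2 stood between the groups of genes. Vsig4 was at 27.8 and 18.1 CPM with vehicle and at 37.5, 28.5 and 43.4 CPM after CCl4 (0.67 ± 0.28, adjusted p = 0.0755). Folr2 was at 7.57 and 5.54 CPM and at 9.42, 7.70 and 14.8 CPM (0.69 ± 0.32, adjusted p = 0.0964). For both, every CCl4 liver was above every vehicle liver, which was the case for 36.7% of all tested genes. DESeq2's Wald test on all 10 livers called 6 of the 9 members higher, and 4643 genes over all tested genes, where edgeR called 4659. Vsig4 and Folr2 both passed with it (adjusted p = 0.0287 for Vsig4 and 0.0498 for Folr2). Single livers also moved these calls, since Vsig4 passed without NTC-Veh replicate 1 (adjusted p = 0.0472), without NTC-CCl4 replicate 2 (0.0431) or without sgBap1-CCl4 replicate 1 (0.0468), and Folr2 passed without NTC-CCl4 replicate 2 (0.0432). Without NTC-Veh replicate 1 the log2 fold change of Clec4f turned from -0.25 to 0.04.

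The scavenger receptor Marco had the largest rise of the 9. It was at 23.7 and 6.10 CPM in the NTC-Veh livers and at 218, 154 and 381 CPM in the NTC-CCl4 livers, far above both (log2 fold change 4.08 ± 0.72, adjusted p = 0.00195). Its size rests on the vehicle livers, which differed 3.88-fold, and was 5.36 without replicate 1 and 3.41 without replicate 2 of NTC-Veh. The pan-macrophage gene Adgre1 rose from 11.1 and 8.17 CPM to 26.1, 29.5 and 48.5 CPM (1.85 ± 0.31, adjusted p = 0.00107). Csf1r, the receptor for CSF1 and IL-34, rose from 35.6 and 30.4 CPM to 84.7, 99.4 and 107 CPM (1.56 ± 0.18, adjusted p = 4.72e-05) with the tightest replicates of the called genes. Cd5l was at 109 and 62.0 CPM with vehicle and at 239.8, 186 and 319 CPM after CCl4 (1.54 ± 0.32, adjusted p = 0.00298). For these 4 genes the groups do not overlap.

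Scaling mattered for the genes with small differences. Library size alone, without TMM, moved the median of all tested genes to 0.50 in this comparison, and Clec4f was then at 0.24, which is -0.27 relative to that median, while Vsig4 (1.15, adjusted p = 0.00861) and Folr2 (1.18, adjusted p = 0.0154) passed the test. With TMM the shift was 0.03 and Clec4f was -0.28 relative to it.

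In sgBap1 livers the same treatment gave lower values of the most specific markers. Clec4f, Timd4 and Cd163 fell, Marco and Csf1r rose, and Vsig4, Cd5l, Adgre1 and Folr2 did not pass the test. The 2 called higher and 3 called lower of 9 stand beside 29.0% and 28.0% of all tested genes. The members' median log2 fold change was -0.47, against 0.04 for all tested genes.

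Clec4f was at 169.8 and 116 CPM in the sgBap1-Veh livers and at 47.1, 63.0 and 65.4 CPM in the sgBap1-CCl4 livers, without overlap (log2 fold change -1.29 ± 0.24, 2.45-fold lower, adjusted p = 0.00155). This call held without any single liver, with log2 fold changes of -1.54 to -0.99. Timd4 was at 14.4 and 10.4 CPM with vehicle and at 4.29, 6.76 and 5.99 CPM after CCl4 (-1.13 ± 0.40, adjusted p = 0.0366). Cd163 was at 27.5 and 10.5 CPM and at 5.47, 7.91 and 7.16 CPM (-1.48 ± 0.45, adjusted p = 0.0224). All 3 CCl4 livers were below both vehicle livers for these genes, as they were for 34.9% of all tested genes, and the calls of Timd4 and Cd163 are fragile. Timd4 lost its call without sgBap1-Veh replicate 1 (adjusted p = 0.213), without sgBap1-Veh replicate 2 (0.0599) and without sgBap1-CCl4 replicate 1 (0.0995), 2 (0.0546) or 3 (0.0681). Cd163 lost it without sgBap1-Veh replicate 1 (log2 fold change -0.61, adjusted p = 0.307) and without sgBap1-CCl4 replicate 1 (0.0661), 2 (0.0503) or 3 (0.0503). Under library size scaling, where the median of all tested genes was 0.52, Clec4f kept its call (-0.81, adjusted p = 0.0167) and Timd4 (-0.64, adjusted p = 0.192) and Cd163 (-1.01, adjusted p = 0.0934) did not. With no filter on low counts Timd4 (adjusted p = 0.0962) and Cd163 (0.0706) were not called either.

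Marco was at 35.8 and 19.7 CPM in sgBap1-Veh and at 150.2, 251 and 165 CPM in sgBap1-CCl4 (2.76 ± 0.67, adjusted p = 0.00875), all CCl4 livers being above both vehicle livers. Csf1r, at 80.8 and 56.5 CPM with vehicle, was at 87.5, 109 and 91.6 CPM after CCl4 (0.49 ± 0.17, adjusted p = 0.0302). Without sgBap1-Veh replicate 2 neither passed the test (Marco 2.40, adjusted p = 0.0697; Csf1r 0.25, adjusted p = 0.268), and Csf1r did not without sgBap1-CCl4 replicate 2, the liver with fat cell RNA (0.38, adjusted p = 0.0820), with the replicate block (0.47, adjusted p = 0.0724) or in a fit of only the livers of the 2 groups (0.48, adjusted p = 0.0605). The secreted protein gene Cd5l was at 219 and 138 CPM and at 187, 243 and 222 CPM, with overlap (0.29 ± 0.30, adjusted p = 0.446), and its sign turned without sgBap1-Veh replicate 2 (-0.01). Adgre1 was at 23.7 and 19.2 CPM and at 25.9, 37.2 and 24.4 CPM (0.44 ± 0.29, adjusted p = 0.227). Vsig4 went from 52.1 and 36.8 CPM to 22.2, 36.6 and 32.2 CPM (-0.55 ± 0.27, adjusted p = 0.114), with 1 CCl4 liver just under the lower vehicle liver. Folr2 was at 17.8 and 12.3 CPM and at 8.38, 13.7 and 10.7 CPM, with overlap (-0.47 ± 0.30, adjusted p = 0.218).

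**Figure D2:**
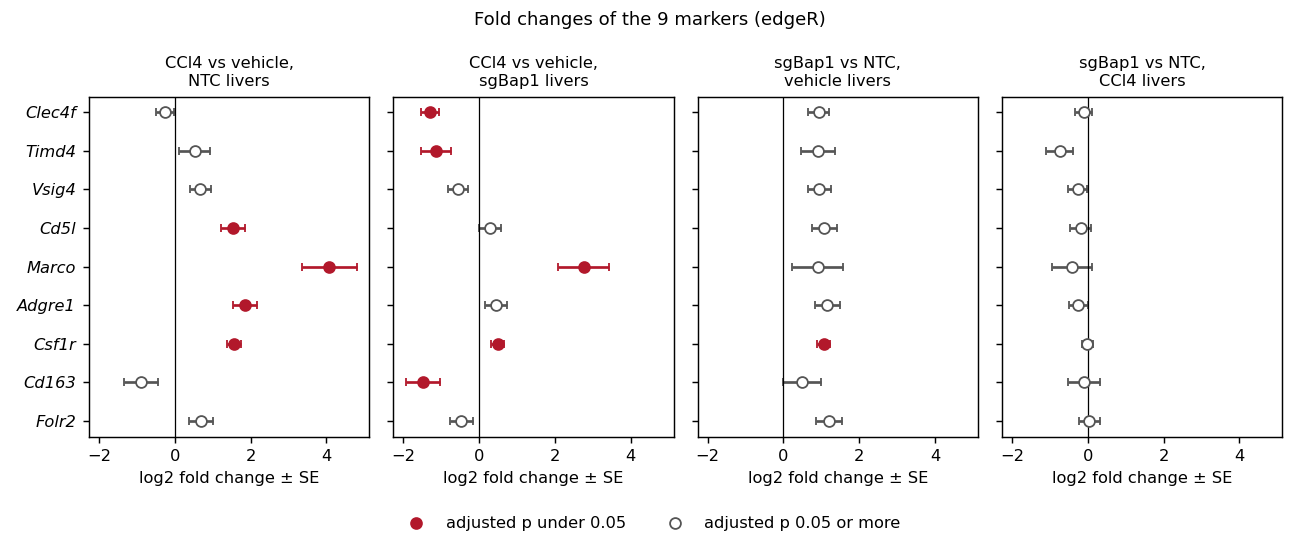
Log2 fold change ± SE (horizontal axis) of each marker in the 4 pairwise comparisons, from 1 model of the 10 livers; filled points have an adjusted p under 0.05. The left panels hold CCl4 against vehicle, with 4 filled points in NTC and 5 in sgBap1 livers, and the right panels sgBap1 against NTC, with Csf1r as the 1 filled point.

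The balance among the markers shifted with CCl4 in both genotypes. Each liver had 7.53 to 8.04 estimated counts of Clec4f for each count of Adgre1 in NTC-Veh and 6.07 to 7.18 in sgBap1-Veh. After CCl4 the ratio was 1.62 to 2.30 in NTC livers and 1.69 to 2.68 in sgBap1 livers. All 6 CCl4 livers were thus below all 4 vehicle livers. A ratio within a liver does not depend on how libraries are scaled, and it shows that the 2 genes changed unequally, not which of them changed. The difference of mean log2 ratios was -2.06 in NTC and -1.71 in sgBap1 livers, and was -2.21 to -1.96 and -1.91 to -1.58 without single livers. Against Csf1r it was -1.80 and -1.78, against the complement gene C1qa -1.56 and -1.40, and against Cd68, a lysosomal protein of macrophages, -3.54 and -3.79. The values for Timd4 per Adgre1 count ran the same way, from 0.607 to 0.736 in NTC-Veh and 0.541 to 0.608 in sgBap1-Veh to 0.185 to 0.325 (NTC) and 0.166 to 0.246 (sgBap1) after CCl4. With 2 against 3 livers an exact two-sided rank test within a genotype cannot give a p below 0.20. No test of the ratios was run, and they are given as values.

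**Figure D3:**
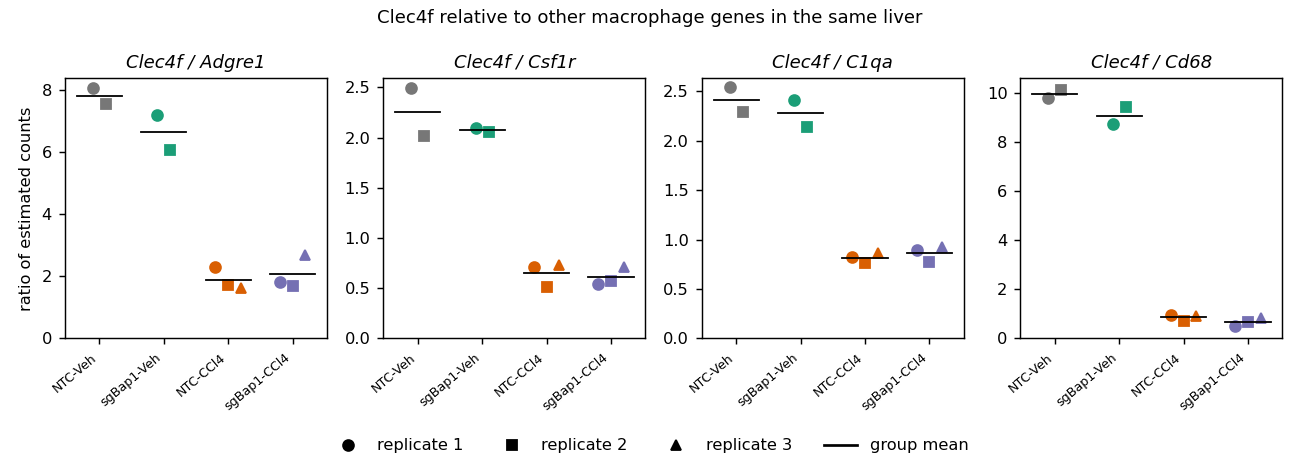
Ratio of the estimated count of Clec4f to that of Adgre1, Csf1r, C1qa or Cd68 in the same liver (vertical axes from 0), by group, with replicates as symbols and the group mean as a bar. In each panel the 6 CCl4 livers lie below the 4 vehicle livers, for example 0.498 to 0.959 against 8.71 to 10.1 for Cd68.

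With vehicle, the 9 markers all had higher means in sgBap1 than in NTC livers, by log2 0.48 to 1.20, but 1 of them passed the test. Of all tested genes 53.4% were higher. Csf1r, the receptor that Kupffer cells need for survival, was at 35.6 and 30.4 CPM in NTC-Veh and at 80.8 and 56.5 CPM in sgBap1-Veh (log2 fold change 1.06 ± 0.18, 2.08-fold, adjusted p = 0.0487). In this comparison 0.406% of all tested genes were called and 0.276% were called higher. The call is borderline. It was lost without any 1 of 9 of the 10 livers, namely without NTC-Veh replicate 1 (adjusted p = 0.0979) or 2 (0.266), without sgBap1-Veh replicate 1 (0.192) or 2 (0.0578), without NTC-CCl4 replicate 1 (0.0725), 2 (0.0724) or 3 (0.0637) and without sgBap1-CCl4 replicate 1 (0.0748) or 3 (0.0697), with log2 fold changes of 0.77 to 1.29, and held without sgBap1-CCl4 replicate 2 (0.0329). With all livers it was also lost with library size scaling (adjusted p = 0.0751), with a filter at a mean of at least 10 counts (0.0502), with the replicate block (0.115) and in a fit of only the livers of the 2 groups (0.156), each of which left 0 members called.

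The other resident markers differed by like amounts with wider errors. Clec4f was at 169.8 and 116 CPM in sgBap1-Veh against 88.8 and 61.5 CPM in NTC-Veh (0.93 ± 0.27, 1.90-fold, adjusted p = 0.191). Folr2 was at 17.8 and 12.3 against 7.57 and 5.54 CPM (1.20 ± 0.35, adjusted p = 0.186), and Adgre1 at 23.7 and 19.2 against 11.1 and 8.17 CPM (1.16 ± 0.33, adjusted p = 0.186). For Cd5l (1.07 ± 0.33, adjusted p = 0.226), Vsig4 (0.95 ± 0.31, adjusted p = 0.244) and Timd4 (0.92 ± 0.45, adjusted p = 0.458) both sgBap1-Veh livers were likewise above both NTC-Veh livers. This absence of overlap in 7 of 9 members compares with 21.7% of all tested genes. Marco (0.90 ± 0.67, adjusted p = 0.682) and Cd163 (0.48 ± 0.50, adjusted p = 0.790) overlapped, and Cd163 turned to -0.39 without sgBap1-Veh replicate 1. At an unadjusted p under 0.05, 6 of 9 members were higher, against 7.09% of all tested genes. DESeq2's Wald test called 6 members higher (Clec4f, Vsig4, Cd5l, Adgre1, Csf1r and Folr2), against 2.69% of the genes it tested. The members were chosen with earlier results of these data known, so these shares describe the list and do not test it.

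The 9 genes are not 9 independent measurements. In both vehicle groups replicate 1 was above replicate 2 for all 9 members, with a median difference of 0.53 on the log2 scale in each group, against 0.01 for all tested genes. NTC-CCl4 replicate 3 was the highest of its group for 8 of 9 members and sgBap1-CCl4 replicate 2 for 8 of 9. Over the 10 livers, the correlations between the members' deviations from their group means were positive for all 36 pairs, with a median of 0.79 and a range of 0.34 to 0.96. They share libraries and scaling. The members were thus high or low together from liver to liver within a group, and the vehicle comparison of all 9 rests on the same 2 livers against 2.

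After CCl4, no member passed the test between sgBap1 and NTC livers. The log2 fold changes were -0.74 (Timd4) to 0.04 (Folr2), 8 of 9 were negative (49.6% of all tested genes), the groups overlapped for all 9 genes (20.3% of all tested genes did not overlap), and 0 members were called by edgeR (0.329%) or by DESeq2 (3.39%), with 0 at an unadjusted p under 0.05 (14.0%). The 3 NTC-CCl4 and 3 sgBap1-CCl4 livers were close for Csf1r (84.7 to 107 against 87.5 to 109 CPM, -0.01 ± 0.15, adjusted p = 0.980), for Clec4f (51.0 to 78.7 against 47.1 to 65.4 CPM, -0.11 ± 0.22, adjusted p = 0.864) and for Cd5l (186 to 319 against 187 to 243 CPM, -0.19 ± 0.27, adjusted p = 0.798). The widest gap was that of Timd4, at 5.47 to 14.7 against 4.29 to 6.76 CPM (-0.74 ± 0.36, adjusted p = 0.394). NTC-CCl4 replicate 3 was high in its group, and without it Clec4f (0.08), Cd5l (0.03), Marco (0.02), Adgre1 (0.07) and Csf1r (0.06) had positive signs. Folr2 turned from 0.04 to -0.16 without sgBap1-CCl4 replicate 2, the liver with fat cell RNA, to -0.04 without NTC-CCl4 replicate 1 and to -0.15 without NTC-CCl4 replicate 2, so that its sign is not settled.

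The interaction asks whether the CCl4 difference depended on the guide. It was negative for all 9 members and for 52.4% of all tested genes, from -1.66 ± 0.57 for Timd4 to -0.59 ± 0.65 for Cd163, and no gene of the 17015, members included, passed the test in edgeR (0.00% called). Among the 9 members the smallest adjusted p was 0.127, for Csf1r (-1.07 ± 0.24), against 0.0694 among all tested genes. Cd163 turned to 0.28 without sgBap1-Veh replicate 1. At an unadjusted p under 0.05, 7 of 9 members were lower, against 6.78% of all tested genes, the exceptions being Marco and Cd163. As in the vehicle comparison, this share describes a list chosen with earlier results known. DESeq2's Wald test called 3 members, Vsig4 (-1.23, adjusted p = 0.0449), Adgre1 (-1.41, adjusted p = 0.0213) and Csf1r (-1.08, adjusted p = 0.00329), against 2.95% of its tested genes. The fall of Clec4f after CCl4 in sgBap1 livers and the absence of a call in NTC livers are therefore not shown to differ (-1.04 ± 0.35, adjusted p = 0.324). The 4 comparisons share groups: the higher sgBap1-Veh values are the baseline of the CCl4 comparison in sgBap1 livers, and the CCl4 groups overlapped for each member. Averaged over vehicle and CCl4, the sgBap1 difference was 0.09 (Timd4) to 0.62 (Folr2), with 0 members called (0.411% of all tested genes), 3 higher at an unadjusted p under 0.05 (Clec4f, Csf1r and Folr2, against 7.63%) and Csf1r called by DESeq2 (0.53, adjusted p = 0.00299, against 4.69%). All 9 were positive, as were 54.1% of all tested genes, but Timd4, Marco and Cd163 turned negative without sgBap1-Veh replicate 1 (-0.04, -0.01 and -0.25), Timd4 and Marco without NTC-Veh replicate 2 (-0.07 and -0.09) and Timd4 without NTC-CCl4 replicate 2 (-0.05).

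Of 8 other genes enriched in Kupffer cells, 4 were called higher and 1 lower after CCl4 in NTC livers (median log2 fold change 0.43), beside 27.4% and 26.6% of all tested genes. In sgBap1 livers 1 was called higher and 4 lower (-0.54), beside 29.0% and 28.0%. Fcna, a ficolin, did not pass in NTC livers (-0.37 ± 0.28, adjusted p = 0.288) and fell in sgBap1 livers (-1.04 ± 0.27, adjusted p = 0.0104). Hpgd, a prostaglandin dehydrogenase, fell in both (-1.56 ± 0.12 and -1.70 ± 0.12, adjusted p = 5.11e-06 and 3.08e-06). The iron exporter gene Slc40a1 did not pass in NTC livers (0.09 ± 0.13, adjusted p = 0.555) and fell in sgBap1 livers (-0.49 ± 0.12, adjusted p = 0.00654). Il18bp, an inhibitor of IL-18, rose in NTC livers (0.92 ± 0.20, adjusted p = 0.00353) and did not pass in sgBap1 livers (-0.12 ± 0.20, adjusted p = 0.621). Between guides with vehicle, 0 of these 8 genes were called and all 8 had higher means in sgBap1 livers. Their median was 0.59, against 0.95 for the 9 members, and 4 were higher at an unadjusted p under 0.05 (7.09% of all tested genes). Hpgd (0.03 ± 0.13) and Slc40a1 (0.07 ± 0.14) differed little there, Fcna (0.66 ± 0.30) and Il18bp (0.83 ± 0.22) more.

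Of 8 transcription factors of macrophage identity, 6 rose and 2 fell in NTC livers, and 5 rose and 2 fell in sgBap1 livers. Among all tested genes 27.4% rose and 26.6% fell in NTC livers, and 29.0% rose and 28.0% fell in sgBap1 livers. Id3 (1.57 ± 0.15 in NTC, 1.22 ± 0.15 in sgBap1, adjusted p = 1.45e-05 and 5.94e-05) and Zeb2 (1.57 ± 0.17 and 1.15 ± 0.17, adjusted p = 3.54e-05 and 0.000221) rose. Nr1h3, which encodes the sterol receptor LXR-alpha and is also expressed by hepatocytes, fell in both (-0.43 ± 0.08 and -0.66 ± 0.08, adjusted p = 0.000959 and 6.07e-05). With vehicle, 1 of the 8 was called higher in sgBap1 livers, against 0.276% of all tested genes. Among signals of the Kupffer cell niche, 9 of 10 genes were tested. After CCl4, 5 of them rose and 1 fell in NTC livers and 4 rose and 2 fell in sgBap1 livers, beside the same shares of all tested genes. None was called between guides, against 0.406% of all tested genes with vehicle and 0.329% with CCl4. The Csf1r ligand Csf1 rose (0.88 ± 0.19 and 0.82 ± 0.19, adjusted p = 0.00323 and 0.00434), whereas Il34 did not pass (0.52 ± 0.23 and 0.24 ± 0.22, adjusted p = 0.0811 and 0.380). Tgfb1 rose 1.93 ± 0.18 and 1.69 ± 0.18 on the log2 scale (adjusted p = 1.44e-05 and 2.75e-05) and Gdf2, the stellate cell ligand BMP9, fell (-0.79 ± 0.15 and -1.08 ± 0.15, adjusted p = 0.00148 and 0.000178).

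Genes of macrophages in general and of recruited cells moved beside the members. After CCl4, 11 of 12 general macrophage genes rose in NTC livers and 8 of 12 in sgBap1 livers, with medians of 2.41 and 1.21, and their summed level went from 252 to 325 CPM in NTC-Veh to 1198 to 1489.7 CPM in NTC-CCl4. Among all tested genes 27.4% rose in NTC livers and 29.0% in sgBap1 livers. All 12 markers of monocytes and recruited macrophages rose in both genotypes, with medians of 3.86 and 3.20, from a sum of 75.8 to 87.4 CPM in the 4 vehicle livers to 636 to 1105 CPM in the 6 CCl4 livers. Gpnmb, a lysosomal glycoprotein of lipid-laden macrophages, rose most among the 4 most abundant of these (8.14 ± 0.53 in NTC, 8.52 ± 0.55 in sgBap1, adjusted p = 6.85e-06 and 5.88e-06), and Lgals3 (galectin-3) rose 5.35 ± 0.28 and 5.11 ± 0.28 (adjusted p = 1.25e-06 and 1.12e-06). All 6 tested neutrophil markers rose in both genotypes. Marco, Cd5l, Adgre1 and Csf1r rose beside genes of recruited cells, and the part of those cells in their values was not tested.

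With vehicle, all 12 general macrophage genes had higher means in sgBap1 livers (median 1.01, next to 0.95 for the 9 members and 0.02 for all tested genes), and 2 of them passed the test: Mpeg1, a pore-forming protein of phagocytes (1.23 ± 0.16, adjusted p = 0.0208), and the cathepsin gene Ctss (1.03 ± 0.14, adjusted p = 0.0209). Of the 12 recruited-cell markers 0 were called, 8 were positive and the median was 0.45. Higher at an unadjusted p under 0.05 were 5 of these 12, 10 of the 12 general macrophage genes and 5 of the 10 lymphocyte markers below. Among all tested genes 7.09% were higher at that level, and 0.276% were called higher. The 10 markers of B, T and natural killer cells were all positive as well (median 0.94, 0 called), with sums of 14.3 and 16.1 CPM in sgBap1-Veh against 5.15 and 11.4 CPM in NTC-Veh. The 8 sinusoidal endothelial markers had a median of 0.32 and 0 calls, and the 7 hepatocyte markers a median of -0.13 and 0 calls. Lymphocyte markers and 8 of the 12 recruited-cell markers thus had higher means beside the members in these livers, and the part of those cells in the result was not tested.

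**Figure D4:**
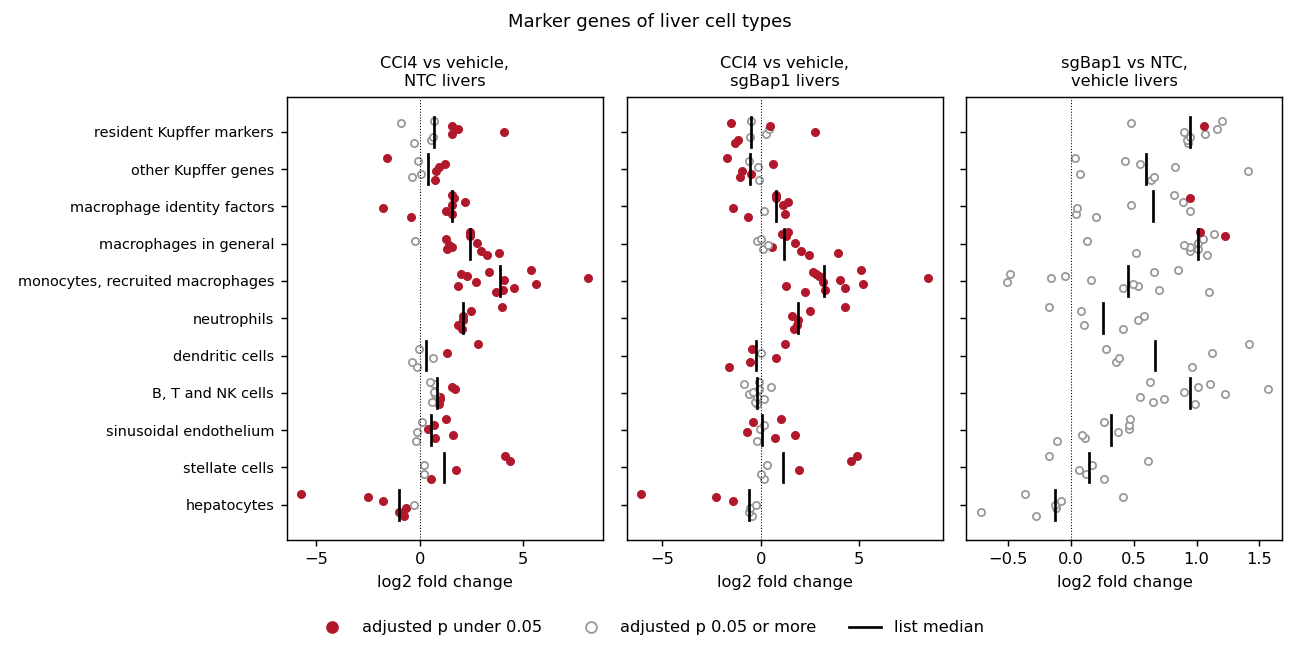
Log2 fold change (horizontal axis, a different range in the right panel) of each gene in 11 lists, for CCl4 in NTC livers, CCl4 in sgBap1 livers and sgBap1 with vehicle; filled points have an adjusted p under 0.05 and bars are list medians. The 12 recruited-cell markers are all filled and positive with CCl4, and the 9 resident markers lie on both sides of 0 there and right of 0 with sgBap1 and vehicle.

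The members also differed in which genes followed them over the 10 livers. Among 12027 tested genes whose mean reached 100 counts, Clec4f was most like Fcna (Pearson r = 0.975 of log2 CPM), Lilra5 (0.974), Dnase1l3 (0.935) and C6 (0.910). Adgre1 was most like Prex1 (0.980), Slc28a2 (0.977), the complement genes C1qc (0.976) and C1qb (0.972) and Hk3 (0.972). These correlations describe 10 livers in 4 groups that share the treatment contrast and the scaling.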

How the data were processed

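Bulk RNA-seq libraries (TruSeq Stranded mRNA, polyA RNA) of 10 mouse livers were analysed, 1 library per mouse. The authors aligned reads with STAR 2.7.6a to GRCm38 and quantified genes with Salmon 1.4.0 on GENCODE vM25; the deposited table holds these estimated counts (expected counts) per gene symbol, not normalized, of which 9.22% are not whole. All 10 columns were matched to their samples by the labels. Total counts were 3.30e+07 to 5.22e+07 per liver.

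Rounded counts were tested with edgeR 4.0.16 under R 4.3.3. The filterByExpr rule set which genes were tested, libraries were scaled by TMM, and 1 quasi-likelihood model of the 4 groups (robust) was fitted to all 10 livers. The 4 pairwise comparisons, the interaction and the average over treatments were tested two-sided, with Benjamini-Hochberg adjustment over 17015 genes and a threshold of 0.05. SE is that of the log2 fold change, and log2 CPM used a prior count of 2. The script was tested on simulated counts. The members and gene lists were chosen with earlier results of these data known. Named genes are all members, Bap1, Csf1, Il34, at most 4 genes of each list by mean CPM, and the 5 genes most like Clec4f and Adgre1. Some genes that this rule names are not reported here. Cd68 and C1qa were used as denominators, Hmgxb3 and Gm10602 as overlapping genes. Positions and shared stretches are from GENCODE vM21.

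The alternatives were DESeq2 size factors, library size scaling, no filter beyond 1 count, a mean of at least 10 counts, the Wald test of DESeq2 1.42.0 (the tool of the study's methods), the replicate number as a block, the method of edgeR 3, a fit of only the livers of the 2 groups, and each liver left out in turn, where a lone liver was assumed to vary like the other groups. Library size values relative to the median of all tested genes, and the values without the liver with fat cell RNA, were added after the data were seen. No batch is named in the labels. The spatial data and other experiments of the study were not analysed here.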

Additional observations from a re-analysis of the deposited data

How the results depend on the processing

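The called rises of Marco, Adgre1, Csf1r and Cd5l after CCl4 in NTC livers and the fall of Clec4f in sgBap1 livers kept their direction and their side of the threshold under every alternative run, livers left out included. The remaining calls did not, and the cause was not tested. Groups of 2 and 3 livers limit the precision more than depth does.

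The 4 members called after CCl4 in NTC livers were 6 with DESeq2's Wald test and with library size scaling, and 4 to 6 without single livers. Over all tested genes, 4643 were called higher with DESeq2's Wald test and 8500 with library size scaling, against 4659 with edgeR and TMM. The 5 called in sgBap1 livers were 3 with no filter and 2 to 5 without single livers. The 1 called between guides with vehicle was 0 with library size scaling, with a mean of at least 10 counts, with the replicate block and with only the livers of the 2 groups, 6 with DESeq2's Wald test and 0 to 1 without single livers. For sgBap1 with CCl4 the count was 0 throughout, also without single livers (0 to 0). The interaction (0 members) had 3 with DESeq2 and 0 to 0 without single livers, and the average over treatments (0) had 1 with DESeq2 and 0 to 0 without single livers. The log2 ratio of Clec4f to Adgre1, -2.06 in NTC and -1.71 in sgBap1 livers, was -3.54 and -3.79 against Cd68, -1.80 in NTC livers against Csf1r, -1.56 and -1.40 against C1qa, and -2.21 to -1.96 and -1.91 to -1.58 without single livers.

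Signs turned where the difference was small. With library size scaling Clec4f after CCl4 in NTC livers was 0.24, Folr2 after CCl4 in sgBap1 livers 0.02 and Csf1r between guides after CCl4 0.01, and with the replicate block Cd163 between guides after CCl4 was 0.00. Without single livers the ranges that cross 0 were -0.49 to 0.04 for Clec4f after CCl4 in NTC livers, -0.01 to 0.67 for Cd5l after CCl4 in sgBap1 livers, and -0.39 to 1.01 for Cd163 between guides with vehicle. Between guides after CCl4 they were -0.25 to 0.08 for Clec4f, -0.36 to 0.03 for Cd5l, -0.67 to 0.02 for Marco, -0.46 to 0.07 for Adgre1, -0.12 to 0.06 for Csf1r, -0.43 to 0.19 for Cd163 and -0.16 to 0.35 for Folr2. For the interaction the range was -1.12 to 0.28 for Cd163. For the average over treatments they were -0.07 to 0.31 for Timd4, -0.09 to 0.89 for Marco and -0.25 to 0.45 for Cd163.

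The replicate numbers are those of the labels. Over all tested genes, same-numbered livers did not deviate together (correlations of deviations from the group means -0.15 to 0.02), so they were not taken to pair the samples. Among the members, replicate 1 was the higher for all 9 in both vehicle groups. After CCl4 the highest liver for 8 of 9 members was replicate 3 in NTC and replicate 2 in sgBap1 livers. With the replicate block Csf1r lost its call between guides with vehicle (1.05, adjusted p = 0.115) and after CCl4 in sgBap1 livers (0.47, adjusted p = 0.0724), and it changed no other call of a member.

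Over all tested genes, the 69 called between guides with vehicle were 562 with DESeq2, 32 with library size scaling, 1 with the replicate block and 27 with only the livers of the 2 groups. The 56 called between guides after CCl4 were 509, 94 with no filter, 24 with the block and 28 with only those livers. The interaction, with 0, had 424 with DESeq2, 34 with no filter and 2 with library size scaling, and the average over treatments, with 70, had 704, 108 with no filter, 43 with library size scaling and 9 with the block. Library size scaling split the CCl4 calls of NTC livers into 8500 higher and 2061 lower, against 4659 and 4519 with TMM, and those of sgBap1 livers into 8614 and 2388, against 4942 and 4758.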

Other observations

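Other cells of the liver gave the setting for these markers. After CCl4, 6 of 7 hepatocyte markers fell in NTC livers and 3 of 7 in sgBap1 livers (medians -0.99 and -0.57). This count and those below stand beside all tested genes, of which 27.4% rose and 26.6% fell in NTC livers. In sgBap1 livers these shares were 29.0% and 28.0%. Cyp2e1, the cytochrome that turns CCl4 into its toxic radical, fell by 5.71 ± 0.34 and by 6.08 ± 0.35 on the log2 scale (edgeR, adjusted p = 1.87e-06 and 1.12e-06). Of 6 stellate cell markers 4 rose in NTC and 3 in sgBap1 livers, with Acta2, the smooth muscle actin of activated stellate cells, up by 4.14 ± 0.53 and 4.89 ± 0.55 (adjusted p = 0.000279 and 0.000131). Of 8 sinusoidal endothelial markers, the cells next to which Kupffer cells lie, 5 rose in NTC livers, and 3 rose and 2 fell in sgBap1 livers. The scavenger receptor gene Stab1 rose in both (0.75 ± 0.15 and 0.74 ± 0.15, adjusted p = 0.00186 and 0.00188) and Stab2 did not pass (-0.16 ± 0.11 and -0.17 ± 0.11, adjusted p = 0.258 and 0.206).

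Lymphocyte markers had calls after CCl4 in NTC livers (5 of 10 higher, median 0.84) and none in sgBap1 livers (0 of 10, median -0.17, with 0 at an unadjusted p under 0.05). Among all tested genes 27.4% were called higher in NTC livers, and 29.0% higher and 28.0% lower in sgBap1 livers. The interaction was negative for all 10 (median -1.09), next to -1.22 for the 9 resident markers, with 0 calls in either list. In these lists 6 and 7 genes were lower at an unadjusted p under 0.05, against 6.78% of all tested genes. Dendritic cell markers were called higher for 2 of 6 in NTC livers, and higher for 2 and lower for 3 of 6 in sgBap1 livers. Of 4 markers of large peritoneal macrophages, 3 rose in NTC and 2 in sgBap1 livers, beside 27.4% and 29.0% of all tested genes. Gata6 was at a mean of 7.77 CPM over the 10 livers and Alox15 at 0.152 CPM. Serpinb2 was at 0.00 CPM in the NTC-Veh livers and at most at 1.13 CPM in any liver, whereas Prg4 was at 64.3 to 139 CPM. Whether such cells were in the samples was not tested. The 4 mesothelial markers had 0 calls by edgeR in each of the 6 comparisons, with 0 at an unadjusted p under 0.05. Of the 5 fat cell markers 1 was tested, Cidec, which rose after CCl4 (4.16 ± 1.12 and 4.24 ± 1.09, adjusted p = 0.0157 and 0.0121). In the NTC-CCl4 livers Cidec was at 14.7 to 15.4 CPM. Adipoq was there at most at 0.0260 CPM, Plin1 at most at 0.0188 CPM and Cfd at 0.00 CPM. Which cells held the Cidec RNA was not tested.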
